A study of Homo sapiens with 12 samples.

Results

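Long intergenic noncoding RNAs are transcripts that RNA polymerase II makes from stretches between protein-coding genes, most of them spliced and polyadenylated like mRNA, and usually present at low levels and in few tissues. Some act as RNA, by tethering proteins or by affecting the gene next door as they are transcribed, and some rows once filed as noncoding have since been found to encode a small protein. In this report they are the rows of the deposited expression table whose symbol is LINC followed only by digits, 127 of the 14828 genes of the table. The rule uses the name alone, though only genes that the authors kept for their level have a row.

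The cells were 22Rv1, a human prostate cancer line, with a pTRIPZ vector from which doxycycline induces an shRNA. The groups were a nontargeting control (shNT) and hairpins shCENPA1 and shCENPA2 against CENPA, the histone H3 variant that marks centromeres. All 3 groups were transduced and given doxycycline at 2 µg/ml for 72 h, controls included, so no group without doxycycline enters these values. Each group had 2 libraries of poly(A)-selected, strand-marked RNA, and each library was run in 2 lanes that were averaged here. Whether libraries of a group came from separate cultures is not stated in the sources used here, so p-values measure the spread between these libraries only. At 2 libraries per group, exact permutation of 1 gene cannot go below a two-sided p of 0.333, and the p-values below come from a limma model fitted across all genes.

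The reads on genes, worked back from the spacing of the deposited values, ranged from 79172294 to 133074655 per library. CENPA fell with both hairpins (log2 fold change -1.78 ± 0.16 with shCENPA1 and -2.76 ± 0.16 with shCENPA2, SE from the limma fit), and its level did not overlap between any 2 groups. Of the prostate luminal markers, 9 of 9 were in the table, from KLK3 at a mean log2 RPKM of -1.28 to HOXB13 at 8.11. Of 6 markers of leukocytes, fibroblasts, endothelium and basal epithelium, COL1A1 alone was in the table, at a mean of 0.10, and the others, PTPRC and KRT5 among them, have no row.

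The LINC RNAs took 0.117% to 0.125% of the reads on genes of a library, and a member had a median of 297 to 517 reads per library. Their median level was 0.34 log2 RPKM (reads scaled to gene length and library size, mean over the 12 runs) against 2.30 for all genes of the table, and they spanned -3.55 to 5.77. LINC00511, LINC00884, LINC00894 and LINC01579 had a mean below -3 and were set aside as too weak, which is 3.15% of the LINC RNAs against 1.38% of all genes. The remaining 123 were tested among 14624 genes. By RefSeq, 30 of the 127 now carry another name and 10 are listed as protein-coding, among them LINC00998 (SMIM30), LINC00493 (SMIM26) and LINC00116 (MTLN, the mitochondrial microprotein mitoregulin).

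A set of 5 promoters is shown first, because 4 of them belong to the LINC RNAs with the largest changes that RefSeq gives a promoter for and are nearly free of CpG, and the fifth, of LINC00933, is the CpG-rich contrast among the changed members. Each sequence runs from 250 bases before to 50 bases after a RefSeq start (GRCh38.p14), on the strand of the gene. Capitals mark TTTGAA (a motif of cell cycle promoters), CCAAT (the motif that NF-Y binds), TATAAA (the TATA box) and, last, AGAACA (a core of steroid hormone response elements), searched on both strands. They lie at chr15:92572214-92572513 on the minus strand for LINC00930, chrX:140709509-140709808 on the plus strand for the first of 3 starts of LINC00632, chr13:23469262-23469561 on the plus strand for LINC00327, chr1:159960974-159961273 on the plus strand for LINC01133 and chr15:84570399-84570698 on the plus strand for the first of 2 starts of LINC00933.
LINC00930: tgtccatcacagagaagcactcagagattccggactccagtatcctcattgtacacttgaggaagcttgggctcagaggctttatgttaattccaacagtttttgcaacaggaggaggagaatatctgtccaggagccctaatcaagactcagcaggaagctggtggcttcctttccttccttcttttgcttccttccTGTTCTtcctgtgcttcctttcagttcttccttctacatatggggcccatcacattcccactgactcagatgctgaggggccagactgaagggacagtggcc
LINC00632: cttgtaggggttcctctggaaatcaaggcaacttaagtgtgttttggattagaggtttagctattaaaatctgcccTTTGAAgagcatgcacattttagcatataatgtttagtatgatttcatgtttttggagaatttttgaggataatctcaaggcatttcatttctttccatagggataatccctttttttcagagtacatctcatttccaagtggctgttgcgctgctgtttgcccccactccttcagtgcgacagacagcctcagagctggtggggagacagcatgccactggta
LINC00327: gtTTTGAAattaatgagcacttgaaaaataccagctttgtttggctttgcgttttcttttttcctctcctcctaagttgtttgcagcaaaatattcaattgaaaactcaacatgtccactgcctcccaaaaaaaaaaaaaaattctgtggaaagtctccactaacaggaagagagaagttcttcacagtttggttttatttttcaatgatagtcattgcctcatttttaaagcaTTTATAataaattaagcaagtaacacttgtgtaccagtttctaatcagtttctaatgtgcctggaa
LINC01133: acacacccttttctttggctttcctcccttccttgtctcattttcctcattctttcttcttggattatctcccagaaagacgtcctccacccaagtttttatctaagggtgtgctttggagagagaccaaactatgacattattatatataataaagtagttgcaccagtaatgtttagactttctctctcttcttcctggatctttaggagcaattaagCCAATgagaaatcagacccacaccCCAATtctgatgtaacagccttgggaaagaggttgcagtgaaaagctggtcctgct
LINC00933: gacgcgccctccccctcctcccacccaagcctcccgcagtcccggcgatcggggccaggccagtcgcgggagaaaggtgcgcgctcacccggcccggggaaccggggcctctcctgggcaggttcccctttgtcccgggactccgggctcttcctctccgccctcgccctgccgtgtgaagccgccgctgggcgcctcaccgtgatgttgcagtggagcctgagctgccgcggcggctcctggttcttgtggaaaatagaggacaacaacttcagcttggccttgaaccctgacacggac

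LINC00930 held AGAACA, read on the other strand, beginning 52 bases before the start, a motif found in 14.8% of the 35116 promoters of the RefSeq table. The window of LINC00327 held TTTGAA (in 15.2% of all promoters) and, 16 bases before the start, TATAAA on the other strand (in 11.5%). That of LINC00632 held TTTGAA, and that of LINC01133 held CCAAT at 2 places (in 34.6%). TTGGCGC and TTCGCGC, E2F motifs, were searched as well and are in 3.04% and 2.24% of all promoters. The window of LINC00933 held none of the 4 motifs first named. The RefSeq starts of LINC00930, LINC00327 and LINC01133 lie inside the GENCODE genes, downstream of the GENCODE starts. Binding was not measured at any of these sequences here.

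The first question was whether LINC RNAs changed with CENPA knockdown at all. A gene was called where its log2 fold change lay beyond 1 and its adjusted p was under 0.05 (limma, Benjamini-Hochberg over all genes tested). With shCENPA1, 3 of 123 LINC RNAs passed, 1 lower and 2 higher, where 2.65% of all genes passed, 1.83% lower and 0.821% higher. With shCENPA2, 9 passed, 5 lower and 4 higher, where 6.13% of all genes passed, 4.45% lower and 1.68% higher. LINC00930, LINC00632 and LINC00327 passed with both hairpins in the same direction, as did 2.39% of all genes. In neither comparison did the share of LINC RNAs called stand far from that of all genes. The hairpins are compared with the same shNT libraries, so they are not independent views of the knockdown. In bulk RNA, fewer cells that make a transcript and less of it per cell cannot be told apart.

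Without the minimum fold, 9 LINC RNAs passed with shCENPA1 (3 lower, 6 higher, against 7.14% of all genes, 4.45% lower and 2.69% higher) and 22 with shCENPA2 (11 lower, 11 higher, against 18.5% of all genes, 10.5% lower and 8.05% higher). The median log2 fold change over the 123 was 0.01 with shCENPA1 and 0.06 with shCENPA2, beside 0.003 and 0.01 for all genes. Most members moved little: 105 lay within 0.5 of no change with shCENPA1 and 88 with shCENPA2.

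One limit of the table touches these counts. Every gene in it reached 1 CPM in at least 3 of 12 runs, the lowest third-highest value being 1.006 CPM, so a weak RNA could enter through the group where it is high. Of the 123 LINC RNAs, 113 reached 1 CPM in some run of all 3 groups, and 10 did not. The 9 that were called hold 6 of those 10, and 3 of the 113. LINC00930 entered through shNT alone and LINC01133 through shCENPA2 alone. LINC00632, LINC00327 and LINC00933 reached 1 CPM in 0 shNT runs and entered through the knockdown groups, and LINC02041 reached it in 0 runs of shCENPA2. The place of these 6 in the table thus rests on the groups where they are high, and the counts of called LINC RNAs are a description only.

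LINC00930 (ENSG00000258647.6), on chromosome 15, was the LINC RNA that fell most. GENCODE places it at chr15:92567817-92574529 on the minus strand of GRCh38, away from any protein-coding gene. Its level was 0.72 and 0.95 log2 RPKM in the controls, -6.64 and -3.90 under shCENPA1, and -3.64 and -2.35 under shCENPA2. Every knockdown library lay at least 3 log2 units below both controls, and the hairpins did not overlap each other. In reads, 295 and 270 in shNT became 2 and 11 with shCENPA1 and 11 and 45 with shCENPA2. Pooled over a group and scaled to the reads on genes, it was left at 2.41% of control with shCENPA1 (exact 95% interval 1.28% to 4.16%) and 8.98% with shCENPA2 (6.70% to 11.8%), intervals that cover counting error only.

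The fitted log2 fold changes of LINC00930 were -6.10 ± 0.77 (adjusted p = 0.00147) and -3.83 ± 0.77 (adjusted p = 0.00793). That SE, the largest of the 123, goes with the 2 to 45 reads of the knockdown libraries. The shCENPA1 value was -4.73 without shCENPA1 library 1 and -7.47 without shCENPA1 library 2, called either way. The call with shCENPA2 was lost without shCENPA2 library 1 (log2 fold change -3.18, adjusted p = 0.0568), and the value was -4.47 without shCENPA2 library 2. Treating the 12 runs as samples with an estimated correlation of lanes, an alternative added after the data were seen, gave p-values past the threshold for neither hairpin (adjusted p = 0.0625 with shCENPA1 and 0.20 with shCENPA2).

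LINC00632 (ENSG00000203930.13), at chrX:140709562-140793215 on the plus strand, rose most. Its locus is known as the origin of the circular RNA CDR1as, which has no poly(A) tail and for which no value is given here. The shNT libraries had -3.86 and -3.44 log2 RPKM, those of shCENPA1 -0.44 and -1.67, and those of shCENPA2 0.37 and 0.54. The groups were thus fully ordered, from 23 reads in each shNT library to 320 and 587 with shCENPA2. The rise was 2.59 ± 0.39 on the log2 scale with shCENPA1 (adjusted p = 0.00367) and 4.10 ± 0.39 with shCENPA2 (adjusted p = 0.000122), a 6.04-fold and a 17.2-fold increase. The shCENPA1 value was 1.97 without shCENPA1 library 1 and 3.21 without shCENPA1 library 2, called either way. The hairpins differed by 1.51 ± 0.39, which did not pass (adjusted p = 0.115).

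LINC00327 (ENSG00000232977.7), at chr13:23465776-23487712 on the plus strand, also rose with both. It had -3.74 and -3.47 log2 RPKM in shNT, -2.24 and -1.64 with shCENPA1, and -1.04 and -0.84 with shCENPA2. No groups overlapped, and the lowest library of shCENPA2 stood above the highest of shCENPA1. It rose by 1.66 ± 0.32 with shCENPA1 (adjusted p = 0.0143) and by 2.67 ± 0.32 with shCENPA2 (adjusted p = 0.000503). The shCENPA1 call was lost without shNT library 1 (1.53, adjusted p = 0.0724) and without shCENPA1 library 2 (1.36, adjusted p = 0.157), and the control level rests on 26 and 25 reads.

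**Figure D1:**
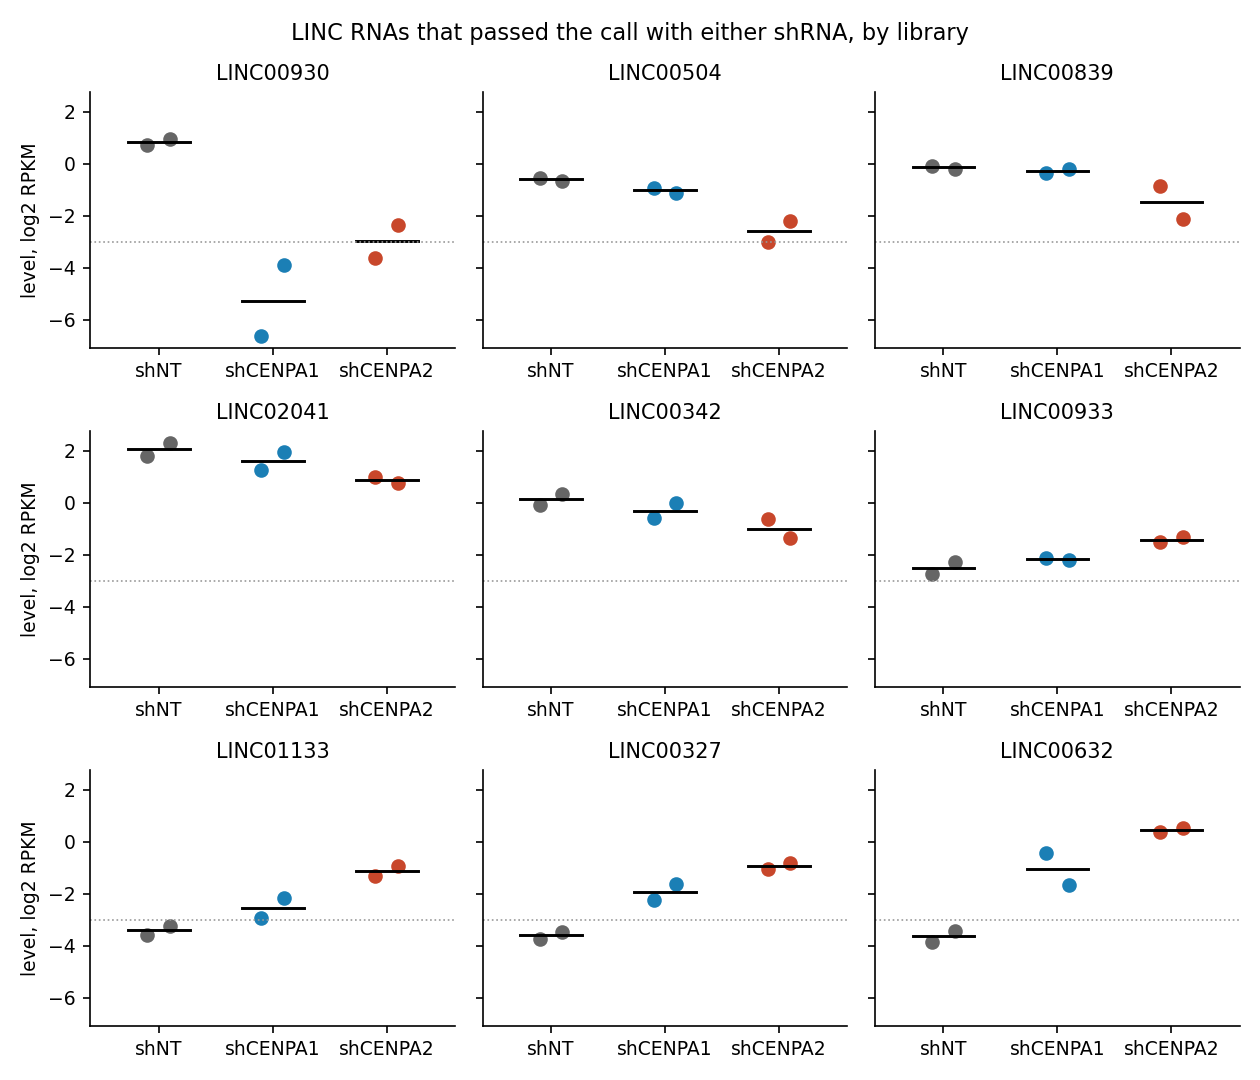
Level (log2 RPKM) of the 9 LINC RNAs called with either hairpin, one point per library (2 per group), with the group mean as a bar and a dotted line at the filter of -3. LINC00930 fell below -2 in every knockdown library, while LINC00632, LINC00327 and LINC01133 rose from below -3 in both shNT libraries.

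LINC01133 and LINC00504 passed with shCENPA2 and not with shCENPA1. LINC01133 (chr1:159958035-159984750, plus strand) had -3.58 and -3.23 log2 RPKM in shNT, -2.94 and -2.18 with shCENPA1, and -1.34 and -0.92 with shCENPA2. All libraries of shCENPA2 lay above all others. It rose by 2.28 ± 0.36 with shCENPA2 (adjusted p = 0.00240), and its change of 0.85 ± 0.36 with shCENPA1 did not pass (adjusted p = 0.214). The difference between hairpins, 1.43 ± 0.36, did not pass either (adjusted p = 0.114), so a response to shCENPA2 alone is not shown.

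LINC00504 (chr4:14470465-14888169, minus strand) is a long gene of weak expression. Its levels were -0.54 and -0.67 log2 RPKM in shNT and -0.92 and -1.11 with shCENPA1, against -3.0 and -2.21 with shCENPA2. The libraries of shCENPA2 stood apart from the other 4. It fell by 2.00 ± 0.30 with shCENPA2 (adjusted p = 0.00193), with a log2 fold change of -0.41 ± 0.30 under shCENPA1 (adjusted p = 0.478). LINC00504 was the one LINC RNA of 123 called between the hairpins, where 0.732% of all genes passed (difference -1.59 ± 0.30, adjusted p = 0.0395). That call was lost without shCENPA1 library 1 (adjusted p = 0.155), without shCENPA1 library 2 (adjusted p = 0.311) and without shCENPA2 library 1 (adjusted p = 0.0538).

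The other 4 called with shCENPA2 changed less and nearer to the threshold. LINC00839 (chr10:42475480-42495337, plus strand) had -0.09 and -0.19 log2 RPKM in shNT and -0.87 and -2.11 with shCENPA2, and it fell by 1.35 ± 0.35 (adjusted p = 0.0270). LINC02041 (chr3:187448845-187449450, plus strand) went from 1.81 and 2.31 to 1.01 and 0.74, and it fell by 1.19 ± 0.24 (adjusted p = 0.00869). LINC00342 (chr2:95807052-95835003, minus strand) went from -0.08 and 0.33 to -0.63 and -1.38, and it fell by 1.13 ± 0.30 (adjusted p = 0.0304). In each of these 3, both shCENPA2 libraries lay below both controls, with shCENPA1 closer to the controls at log2 fold changes of -0.13, -0.44 and -0.44. LINC00933, a name that GENCODE gives to more than 1 gene and that was not placed, had -2.74 and -2.30 in shNT and -1.53 and -1.34 with shCENPA2, and it rose by 1.09 ± 0.29 (adjusted p = 0.0307).

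These 4 calls depend on single libraries. Without shCENPA2 library 2 all of them were lost, with log2 fold changes of -0.73 for LINC00839 (adjusted p = 0.0503), -1.06 for LINC02041 (adjusted p = 0.0537), -0.76 for LINC00342 (adjusted p = 0.125) and 0.99 for LINC00933 (adjusted p = 0.0720). Without shNT library 2, LINC02041 (-0.94, short of the minimum fold), LINC00342 (-0.93, adjusted p = 0.162) and LINC00933 (1.31, adjusted p = 0.0782) were lost, and without shNT library 1 LINC00839 (-1.30, adjusted p = 0.0708) and LINC00933 (0.87, adjusted p = 0.254) were. Leaving out either library of shCENPA1 only leaves fewer libraries to estimate the spread. LINC00839, LINC00342 and LINC00933 were then lost at unchanged fold changes. Without shCENPA2 library 1, LINC00839 was at -1.97.

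**Figure D2:**
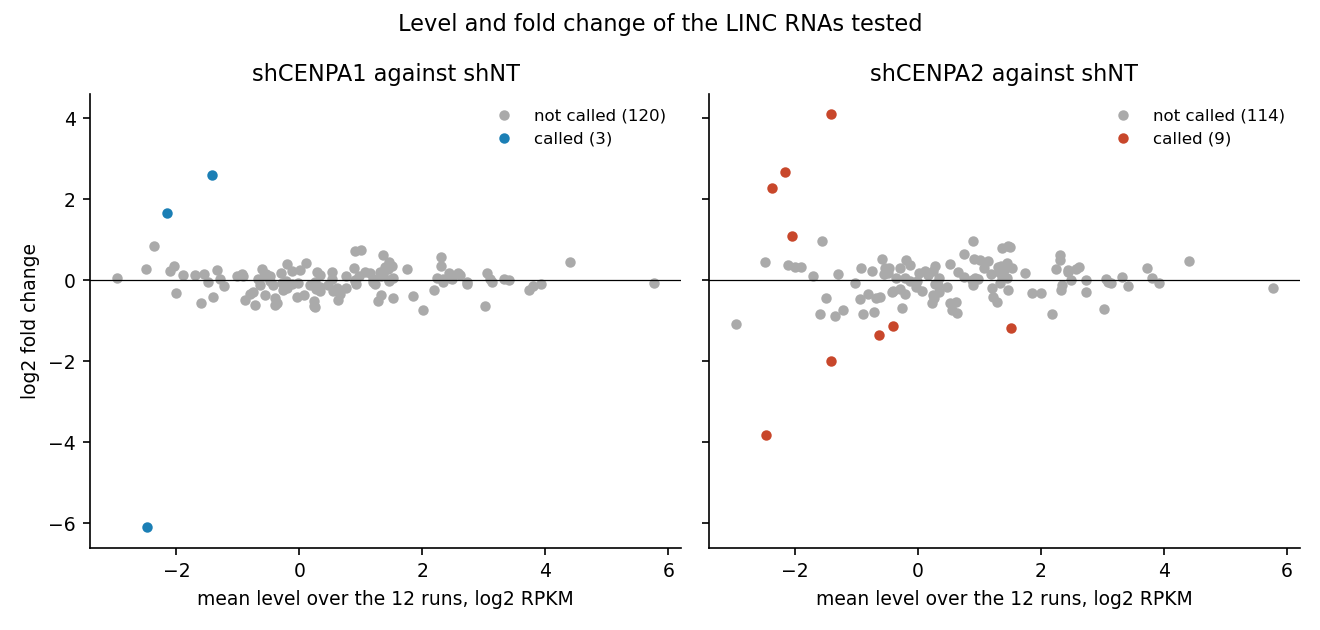
Log2 fold change against mean level (log2 RPKM over the 12 runs) for the 123 LINC RNAs tested, one point each, with shCENPA1 on the left (3 called) and shCENPA2 on the right (9 called). The called members sit mostly at the weak end of the range, and no LINC RNA with a mean level above 2 was called.

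The strongly expressed LINC RNAs held their level or shifted by less than a log2 unit. LINC00998, whose product SMIM30 is a small membrane protein, was the highest at 5.83 and 5.87 log2 RPKM in shNT, 5.70 and 5.89 with shCENPA1, and 5.58 and 5.75 with shCENPA2. Its log2 fold changes were -0.06 (adjusted p = 0.781) and -0.19 (adjusted p = 0.246). LINC00467 was at 3.98 and 3.97 in shNT, with log2 fold changes of -0.09 and -0.07 that did not pass.

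LINC01139, also called LINK-A and next after LINC00998 in the controls, was at 3.96 and 4.22 in shNT, 4.57 and 4.51 with shCENPA1, and 4.60 and 4.54 with shCENPA2. It passed the adjusted p without reaching the minimum fold, at 0.45 ± 0.10 (adjusted p = 0.0307) and 0.48 ± 0.10 (adjusted p = 0.0107). Without shNT library 1 neither passed (0.32, adjusted p = 0.311, and 0.36, adjusted p = 0.161), and without either shCENPA1 library the first did not (adjusted p = 0.115 and 0.136). LINC01029 was at 3.37 and 3.57 in shNT, 2.86 and 2.81 with shCENPA1, and 2.69 and 2.84 with shCENPA2. It passed likewise at -0.64 ± 0.11 (adjusted p = 0.00857) and -0.70 ± 0.11 (adjusted p = 0.00230). The first did not pass without shNT library 2 (-0.54, adjusted p = 0.133), shCENPA1 library 1 (adjusted p = 0.0529) or shCENPA1 library 2 (adjusted p = 0.0835), while the second passed without any 1 library. In both, all 4 knockdown libraries were on the same side of the controls.

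LINC00992 and LINC01137 passed the adjusted p with both hairpins too, each higher. LINC00992 went from 1.92 and 1.90 log2 RPKM in shNT to 2.43 and 2.51 with shCENPA1 and 2.54 in each library of shCENPA2. LINC01137 went from 0.40 and 0.28 to 0.88 and 1.26 with shCENPA1, and to 1.38 and 1.22 with shCENPA2, just short of the minimum fold at 0.96 ± 0.17 (adjusted p = 0.00469) and past it without shNT library 1 (1.02) or shCENPA2 library 2 (1.04). With shCENPA1, neither LINC00992 nor LINC01137 passed without shNT library 1 (adjusted p = 0.111 and 0.108), shNT library 2 (adjusted p = 0.156 and 0.245) or shCENPA1 library 2 (adjusted p = 0.0857 and 0.211). On the other side of the adjusted p, LINC00461 reached a log2 fold change of -1.09 with shCENPA2 without passing (adjusted p = 0.126), its shCENPA2 libraries being at -3.13 and -4.28.

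Precision followed depth. The median absolute difference between the libraries of a group was 0.42 log2 units for the 9 LINC RNAs under 100 reads, 0.21 for the 86 with 100 to 1000 reads and 0.07 for the 28 with more. The same depth classes over all genes gave 0.39, 0.22 and 0.11, so LINC RNAs were about as variable as other genes of their depth. The median SE of a log2 fold change was 0.196 (range 0.087 to 0.767), and a change well under 1 in a weak member was not detectable at this depth. The 4 members set aside have no test. LINC01579 had -2.74 and -2.62 log2 RPKM in shNT and -4.52 and -4.26 with shCENPA2, whereas LINC00884 had -3.02 and -2.70 in shNT and -2.17 and -3.29 with shCENPA2, on either side of its controls.

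Where a LINC RNA lies relative to protein-coding genes was described next. Of the 123, 48 lay farther than 10000 bases from any protein-coding gene, 23 lay within that distance, 20 had a start within 2000 bases of a protein-coding gene read the other way, 17 overlapped one, 10 are now protein-coding themselves, and 5 could not be placed. Whether reads were counted by strand is not given in the sources used here, so for the overlapping RNAs the reads of a gene and its partner cannot be told apart. The isolated ones held 3 of the 3 called with shCENPA1 and 6 of the 9 called with shCENPA2. LINC00930, LINC00632, LINC00327 and LINC02041 among them entered the table through the groups where they are high, so nothing is read from these counts. Of all genes, 2.65% and 6.13% were called. Among the 20 head-to-head, the 17 overlapping and the 10 now protein-coding, limma called 0 with either hairpin, as did voom on the recovered reads, and groups of this size hold few calls at those shares. At an unadjusted p under 0.05 they held 2, 4 and 0 RNAs with shCENPA1 and 3, 5 and 4 with shCENPA2. The median log2 fold change of the head-to-head RNAs was 0.02 with shCENPA1 (11 of 20 above 0) and 0.19 with shCENPA2 (14 of 20 above 0). That of the overlapping ones was -0.09 (10 of 17 below 0) and -0.17 (12 of 17 below 0), beside 7229 and 7077 of all 14624 genes below 0.

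Each LINC RNA called with both hairpins had a protein-coding gene within 1 Mb that was called with both in the same direction. This was looked for after the values were known, and of all 334 placed genes called with both, 26.6% had such a neighbour. LINC00930, LINC00632 and LINC00327 entered the table through the groups where they are high, so nothing is read from this comparison. FAM174B, which encodes a membrane protein, starts 235355 bases upstream of LINC00930. It was at 3.33 and 3.34 log2 RPKM in shNT, 1.03 and 0.96 with shCENPA1, and 0.78 and 0.57 with shCENPA2, with log2 fold changes of -2.34 ± 0.13 and -2.66 ± 0.13. The next genes of the table on that side did not pass: LINC01578, which is CHASERR, an RNA known to restrain its neighbour CHD2, had log2 fold changes of 0.02 and -0.01, and CHD2 itself, a chromatin remodeller, had 0.01 and 0.02.

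LDOC1, a gene derived from a retrotransposon Gag, starts 467567 bases downstream of LINC00632. It was at 5.23 and 5.17 log2 RPKM in shNT, 6.50 and 6.60 with shCENPA1, and 7.30 and 7.16 with shCENPA2, the same order of groups as LINC00632. It rose by 1.36 ± 0.09 and 2.03 ± 0.09. TNFRSF19, a receptor of the TNF family, starts 104594 bases downstream of LINC00327. It was at 2.44 and 2.46 log2 RPKM in shNT, 3.56 and 3.48 with shCENPA1, and 4.49 and 4.53 with shCENPA2, and it rose by 1.07 ± 0.09 and 2.06 ± 0.09. Around LINC00504, 0 of the 4 genes tested were called by limma or voom with either hairpin, 0 at an unadjusted p under 0.05, and CPEB2, 114312 bases away, had -0.17 and -0.14.

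**Figure D3:**
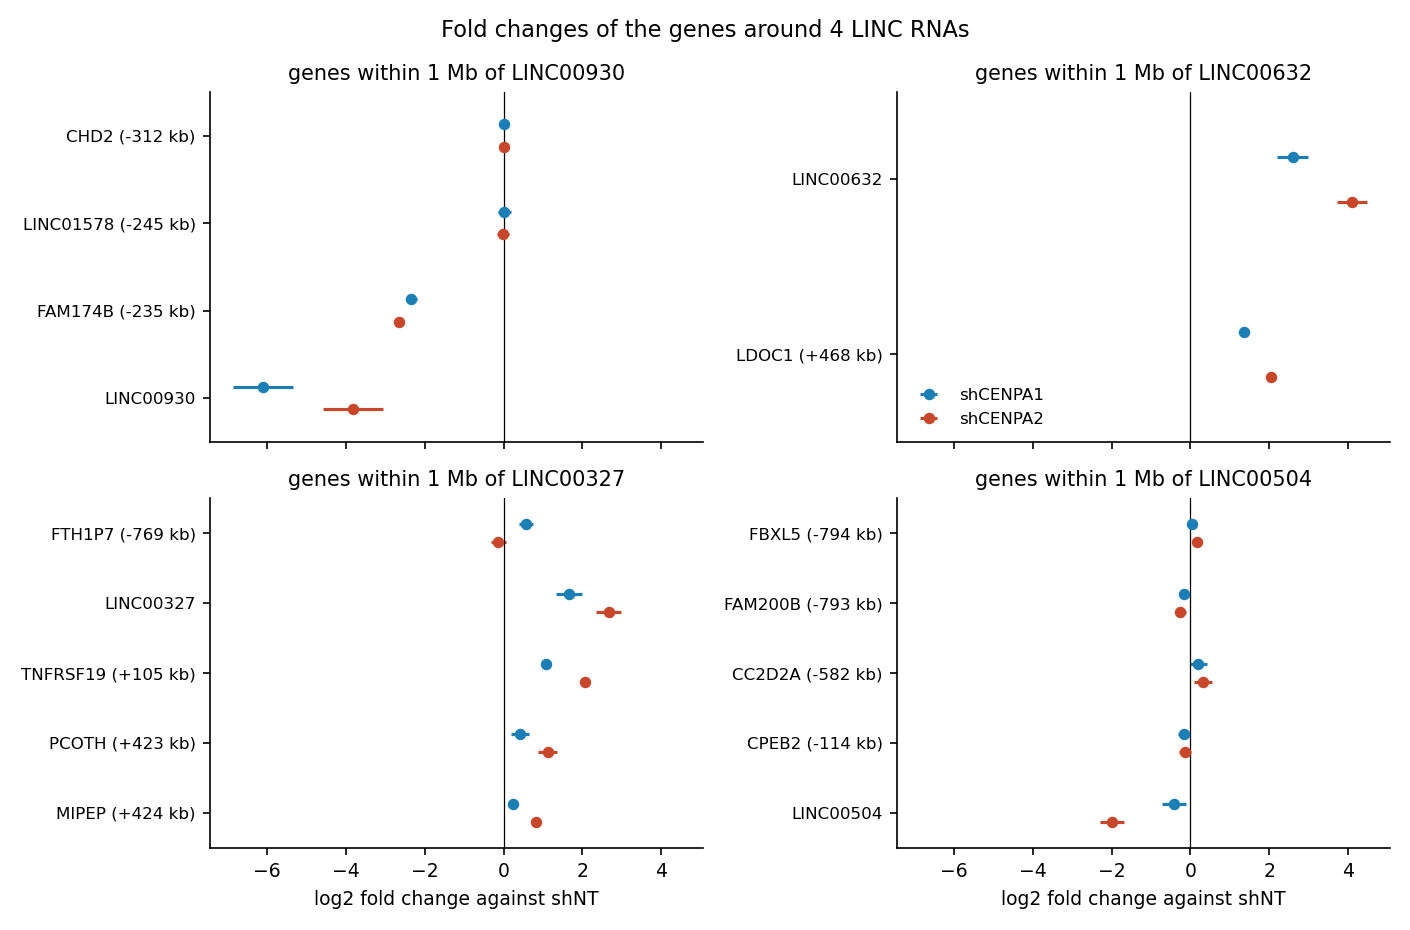
Log2 fold change (points, with SE bars) for shCENPA1 and shCENPA2 of 4 LINC RNAs and of tested genes starting within 1 Mb that are reported here, in order along the strand of the LINC RNA, with the distance of their starts in kb (upstream negative). FAM174B, LDOC1 and TNFRSF19 moved with LINC00930, LINC00632 and LINC00327, and no gene around LINC00504 was called.

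Over all placed LINC RNAs the surroundings were ordinary. Of 117 tested and placed, 35 (29.9%) had a gene called with both hairpins within 1 Mb, beside 32.0% of 13357 genes. Taking only the protein-coding gene of the table with the nearest start, 5 of 117 were called with shCENPA1 and 6 with shCENPA2, where 2.65% and 6.13% of all genes were.

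The promoters of the called members differed among themselves in CpG. A RefSeq promoter was found for 98 of the 127 LINC RNAs (114 starts). Their median was 19 CpG dinucleotides in 300 bases against 14 over all promoters of the table, which includes genes silent in these cells. Those medians are over single starts. Counted per tested gene with an entry, by the highest count of a gene's starts, the order was reversed. The median was then 20 for 95 LINC RNAs and 28 for all 10662, so both the measure and the set of genes differ. By that count, LINC00930, LINC00327 and LINC01133 had 1, LINC00632 had 3, LINC00839 had 9 and LINC00933 had 26. The other 3 called members, LINC00342, LINC00504 and LINC02041, had no entry.

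Of the 95 tested LINC RNAs with a promoter entry, 14 had 3 CpG or fewer, a limit chosen after these values were seen. The called ones among them were LINC00930, LINC00632, LINC00327 and LINC01133, all of which entered the table through the groups where they are high, so nothing is read from how many were called on either side of that limit. The CpG-poor LINC RNAs were also weaker, at a median of -0.24 against 0.65 log2 RPKM for the other 81. Neither trait is particular to LINC RNAs. Of all 216 tested genes with 3 CpG or fewer, 10.2% were called with shCENPA1 and 21.8% with shCENPA2, beside 2.56% and 5.71% of those with more. Their median level was 0.20 against 2.64 log2 RPKM. LINC00992, LINC00294 and LINC00641, each with 3 CpG or fewer and levels above 2, were not called.

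**Figure D4:**
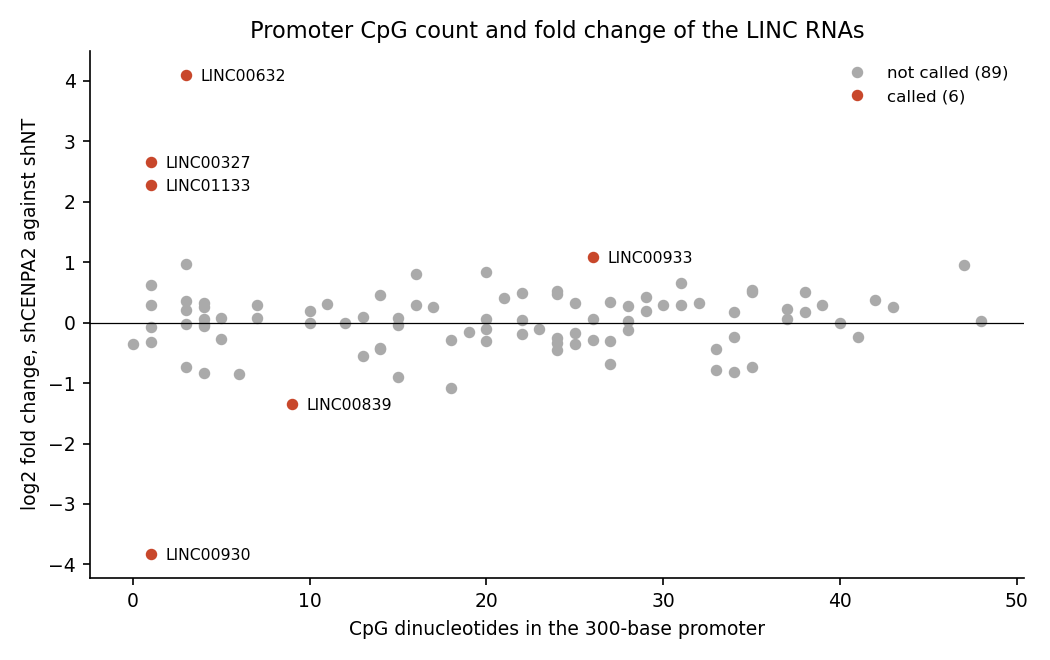
Log2 fold change with shCENPA2 against the number of CpG dinucleotides in the 300-base RefSeq promoter for the 95 tested LINC RNAs with an entry, one point each (6 called). LINC00930, LINC00632, LINC00327 and LINC01133 lie at 3 CpG or fewer, and most of the others stay between -1 and 1 at any count.

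Long noncoding RNAs outside the LINC names were read from lists for comparison. Of all genes tested, 2.65% were called with shCENPA1 and 6.13% with shCENPA2, and lists this short hold few calls at those shares. Of 17 tested scaffolds and regulators such as MALAT1, NORAD and TUG1, 0 were called by limma or voom with either hairpin (2 and 1 at an unadjusted p under 0.05). MALAT1 passed the adjusted p with shCENPA2 without the minimum fold, at -0.32 (limma, adjusted p = 0.0283). Of 5 prostate RNAs, PCAT7 was higher with shCENPA2 at 0.67 ± 0.16 (limma, adjusted p = 0.01655), short of the minimum fold. PCAT14, a transcript known from prostate cancer, was the one called with shCENPA2. It was at 0.30 and 0.43 log2 RPKM in shNT, -0.22 and -0.27 with shCENPA1, and -1.82 and -1.44 with shCENPA2, a log2 fold change of -1.99 ± 0.21 (adjusted p = 0.000257). PCAT14 was also called between the hairpins, at -1.38 (adjusted p = 0.0159), a call lost without either shCENPA1 library (adjusted p = 0.105 and 0.192). Of 19 snoRNA host genes, which carry small nucleolar RNAs in their introns, 0 were called by limma or voom (3 and 8 at an unadjusted p under 0.05), but 15 lay below 0 with shCENPA2 and their median log2 fold change was -0.28. SNHG1 among them was at 4.12 and 4.42 log2 RPKM in shNT and 3.41 and 3.27 with shCENPA2, a log2 fold change of -0.93 (adjusted p = 0.00212) that passed the test without the minimum fold and reached it without shNT library 1 (-1.08) or shCENPA2 library 1. The 6 miRNA hosts had 0 calls by limma or voom (0 and 1 at an unadjusted p under 0.05). MIR99AHG passed the adjusted p with shCENPA2 without the minimum fold, at 0.49 (limma, adjusted p = 0.0496). Of 15 LINC RNAs listed for a documented RNA role or a prostate link, 8 were in the table and 7 were tested, and LINC00632 was the one called.

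Prostate identity genes moved in the same samples. KLK3, the gene of PSA, was at -0.48 in each shNT library, -1.41 and -1.09 with shCENPA1, and -2.17 and -2.07 with shCENPA2, and TMPRSS2 and KLK2 were also lower with shCENPA2, whereas HOXB13 was at 7.90 and 7.79 in shNT and 8.39 and 8.23 with shCENPA2. Their part in the changes of the LINC RNAs was not tested.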

How the data were processed

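RNA-seq of polyadenylated RNA was done on 6 libraries of 22Rv1 cells, 2 for each of shNT, shCENPA1 and shCENPA2, with 2 lanes per library. The values deposited by the authors are log2 RPKM, 1 column per run. Per the methods of the study, reads were trimmed with TrimGalore, aligned to hg38 with STAR, counted with HTSeq and tested with edgeR, with versions not given in the sources used here. Poly(A) selection leaves out RNAs without a tail. All 12 columns were used.

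Lanes were averaged per library. For genes whose mean log2 RPKM was -3 or more (14624), group differences were estimated by limma 3.58.1 under R 4.3.3 (a trend in the variance, 3 groups in one fit, no covariate, no constant added). The constant the authors added before the logarithm draws fold changes of weak genes towards 0. Averaging the logarithms of lanes and libraries with few reads can draw a fall away from 0. The fitted fall of LINC00930 with shCENPA1 was larger than its pooled reads give. Whole reads were recovered from the steps of the values for 14828 of 14828 genes (within 0.001 of a whole read) and gave the depth, 79172294 to 133074655 reads on genes per library. The fit was tested on simulated data. Lanes of a library differed by a median of 0.10 log2 units over the LINC RNAs and libraries of a group by 0.19.

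Positions came from GENCODE 44 (122 of 127 symbols matched) and current names and promoters from RefSeq GRCh38.p14 (127 matched by name, 98 with a promoter), both on the build of the files. Named members were those called with both hairpins, called with one, called between them, and highest in shNT. The neighbours, the CpG limit and several genes were named after their values were seen. The members and lists were chosen with earlier results of these data known. Alternatives were other scalings, constants of 0.1 and 1 added to the RPKM, other filters, runs as replicates, a replicate block, limma without the trend, only the groups compared, voom on the recovered reads, no minimum fold and leaving out each library. VCaP cells and the other assays of the study were not analysed here, and a few genes are not reported here.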

Additional observations from a re-analysis of the deposited data

Results flagged for a closer look

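LINC00504 responded differently to the 2 hairpins by the test of the difference itself: it fell by 2.00 ± 0.30 on the log2 scale with shCENPA2 and had a log2 fold change of -0.41 ± 0.30 with shCENPA1, a difference of -1.59 (limma, adjusted p = 0.0395). It was lower with shCENPA2 in 2 of 2 libraries than in any other library, and the call was lost in 8 of 17 alternatives, with adjusted p from 0.000364 to 0.311. CENPA itself was lower with shCENPA2 than with shCENPA1, by -0.98 (adjusted p = 0.0209), and how much of the difference goes with that was not tested.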

How the results depend on the processing

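The count with shCENPA1 (3) became 1 with 1 added to the RPKM, 0 with a filter at -1 and 9 without a minimum fold, and 2 to 3 leaving out a library. The count with shCENPA2 (9) became 2, 3 and 22 in the same settings, 5 with an estimated correlation of lanes (added after the data were seen), and 6 to 14 leaving out a library. The count with both (3) became 1, 0 and 7, and 2 to 3 leaving out a library. The filter at -1 removes LINC00930, LINC00632, LINC00327, LINC01133, LINC00504 and LINC00933 by construction, since their means lie below it. The count between the hairpins (1) became 0 with quantile normalization, with 1 added, with the filter at -1, without the trend, with the replicate block and with the correlation of lanes, 2 with only the groups compared and with voom, 7 with 12 runs as replicates, and 0 to 3 leaving out a library. For most of these settings the share of all genes called is not given here. The counts are thus not read as particular to the LINC RNAs. Apart from the cases of construction, the cause of these changes was not tested.

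No shared shift of same-numbered libraries was seen: their deviations correlated at -0.06, -0.10 and -0.15. Whether they were prepared together is not stated in the sources used here, and these values cannot tell. The replicate block changed no other count, giving 3, 9 and 3. No change called in the main analysis turned its direction in any of the alternatives run. LINC00632, LINC00327, LINC00504 and LINC01133 kept their shCENPA2 call in every alternative that tested them but 1 added to the RPKM, where LINC00632 kept its call too. Other scalings moved the median of all genes by at most 0.03. Depth limits the weak members most: the control levels of LINC00632, LINC00327 and LINC01133 rest on 23 to 28 reads per library, and the members under 100 reads differed between libraries by a median of 0.42 log2 units.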
